A study of Mus musculus with 8 samples.

Results

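Germline and pluripotency genes were examined for promoter methylation in mouse mammary tumors. The 47 genes take part in the piRNA pathway and germ granules, the synaptonemal complex and chromosome axis, meiotic entry and recombination, other steps of germ cell life, or pluripotency. For each gene, cytosines with 10 or more reads in all 8 libraries were taken within 1000 bp either side of any GENCODE M21 start site, and the percent of methylated reads over those cytosines is called the methylation of its promoter window. Of the 47 genes, 33 had such a cytosine, among 20455 genes measured in all, and the 33 windows held 385 cytosines. The principal start is the start of the first transcript that the annotation marks as principal. In 29 of the 33 genes a measured cytosine lay within 1000 bp of it, and in Tdrd9, Mov10l1, Tdrd12 and Tex15 the measured cytosines lay at other annotated starts.

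Tumors of NIC-5231, a single cell line from an ErbB2-driven mouse mammary tumor, were grown in mammary fat pads of immunodeficient NSG mice that were 5 to 7 weeks old at injection, with 5 mice per group. Mice received vehicle (saline with 30% PEG and 5% DMSO, labelled DMSO), C29, 5-azadC, or C29+5-azadC, intraperitoneally every 2 days, with C29 dosed at 10 mg/kg and 5-azadC at 1 mg/kg. C29 is an inverse agonist of ERRα, a nuclear receptor, and 5-azadC is decitabine, a nucleoside that is built into DNA and traps DNA methyltransferases. DNA was studied by reduced representation bisulfite sequencing (RRBS), which reads methylation at single cytosines in CpG-rich fragments, in 2 libraries per group, each from the pooled DNA of 2 mice. NSG hosts lack lymphocytes but keep stromal and myeloid cells, and since tumor and host are both mouse, their DNA cannot be told apart in these bulk samples. RNA was not part of these data, so whether the genes were silent was not measured.

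Most CpG-rich promoters are free of methylation in somatic cells. Many germline genes are an exception in the mouse: their CpG-rich promoters are methylated around implantation and stay so in the soma, and their loss of methylation is a known response to methyltransferase inhibitors. A repressor complex of the Polycomb group containing E2F6, MGA and MAX binds E-box (CACGTG) and E2F motifs (such as GGCGGGA) in many of these promoters. Pluripotency genes such as Pou5f1 are methylated later, as cells leave the pluripotent state.

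On chromosomes 1 to 19 and X, the libraries held 51193535 to 81023128 reads over cytosines, with a median of 21 to 30 reads per cytosine and the lowest total in C29+5-azadC replicate 2. Unmethylated control DNA was read as 0.216 to 0.329% methylated and methylated control DNA as 97.5 to 98.3%. Across all windows, libraries correlated at r of 0.877 to 0.920, whether they came from the same group or from different groups. A window of the 33 genes had from 12 reads (Rpl10l) to 2559 reads (Dazl) in a library.

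The promoters of 3 genes with window means above 85% are shown because they carry dense methylated CpGs next to the start site. Each is the RefSeq sequence of the 250 bases before the start in GRCm38.p6, written 5′ to 3′ along the gene, with the CpGs that had a measured cytosine on either strand in capitals. They lie at chr3:95559427-95559676 on the plus strand (Hormad1), chr3:102936101-102936350 on the minus strand (Sycp1) and chr1:166238745-166238994 on the minus strand (Mael).
Hormad1: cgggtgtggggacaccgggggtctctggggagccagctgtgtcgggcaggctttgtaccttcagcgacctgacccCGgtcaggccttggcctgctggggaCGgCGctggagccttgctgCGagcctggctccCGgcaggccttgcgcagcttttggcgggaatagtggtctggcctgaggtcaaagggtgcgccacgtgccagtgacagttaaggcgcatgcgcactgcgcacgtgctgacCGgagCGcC
Sycp1: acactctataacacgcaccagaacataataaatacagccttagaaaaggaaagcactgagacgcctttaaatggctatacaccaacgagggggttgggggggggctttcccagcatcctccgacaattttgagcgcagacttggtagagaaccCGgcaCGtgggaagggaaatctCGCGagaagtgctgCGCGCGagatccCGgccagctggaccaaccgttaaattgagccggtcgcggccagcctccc
Mael: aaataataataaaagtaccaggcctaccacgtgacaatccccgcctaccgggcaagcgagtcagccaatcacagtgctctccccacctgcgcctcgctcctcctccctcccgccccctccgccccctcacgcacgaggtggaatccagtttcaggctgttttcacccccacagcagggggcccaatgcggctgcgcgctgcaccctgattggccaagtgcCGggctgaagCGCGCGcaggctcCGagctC
A capital C at the end of a sequence belongs to a CpG whose G is the next base. The measured cytosines of these stretches averaged 82.6 to 98.7% over the 8 libraries in Hormad1 and 94.3 to 100% in Mael. In Sycp1 they ran from 8.30 to 100%, and the 8.30% was on 1 strand of a CpG that averaged 96.0% on the other. CACGTG occurs 2 times in the Hormad1 stretch and 1 time in each of the other two, and its CpG in Sycp1, at -91 and -92 bp from the start, was measured on both strands at 98.4 and 94.1%. GGCGGGA, counted on either strand, occurs 1 time in Hormad1 and 1 time in Mael.

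Promoter windows of these genes were mostly methylated in every group, vehicle included. The mean of the 8 libraries was 50% or more (called methylated here) in 27 of the 33 and 10 to 50% (intermediate) in 6, and no window was below 10% (low). Among the 14326 protein-coding genes measured, 12.3% of windows were methylated and 61.5% were low. The median of the gene means was 80.8% for the 33 genes and 2.91% for protein-coding genes. By this measure methylation held for 27 of the 33 genes; the other 6 were Tdrd6 (49.3%), Mov10l1 (46.96%), Tdrd5 (36.0%), Stag3 (23.3%), Tex15 (23.2%) and Dmrt1 (17.1%).

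**Figure D1:**
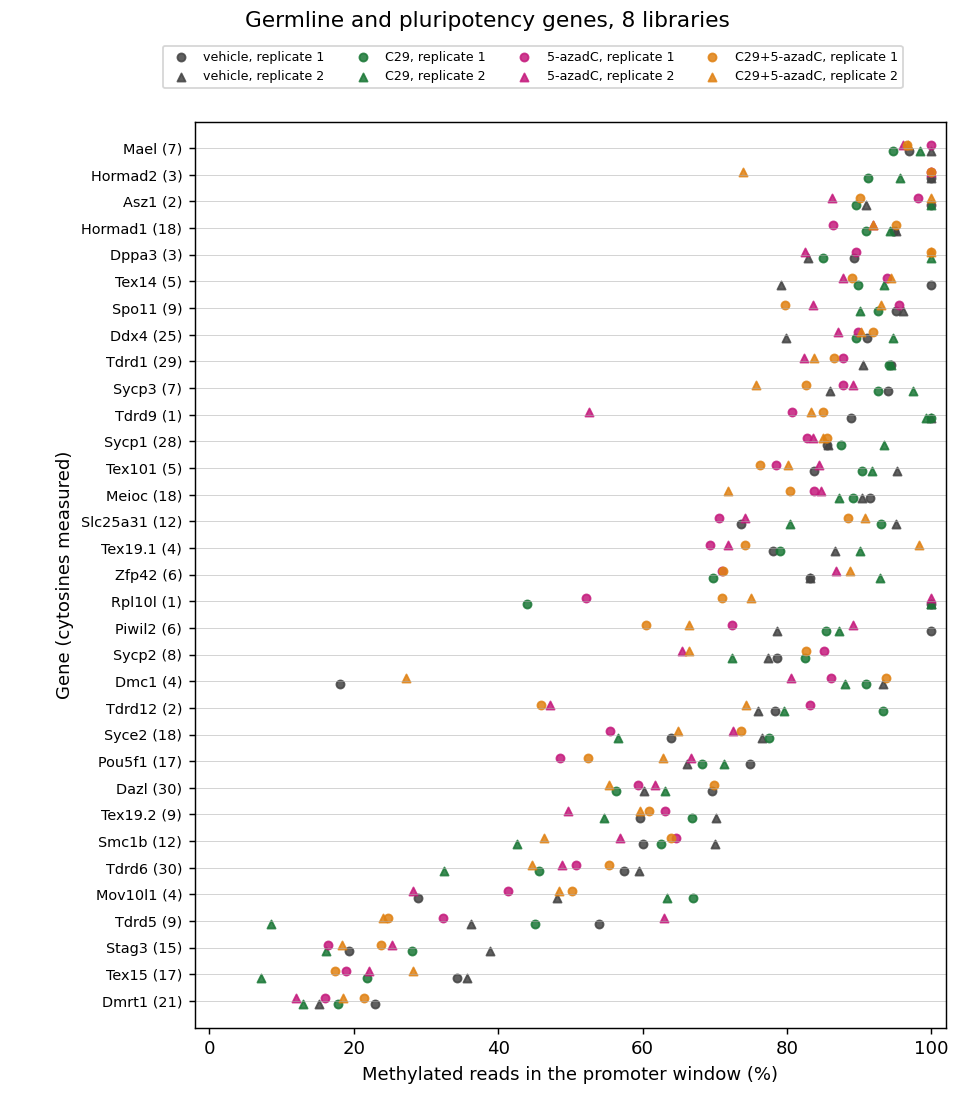
Percent of methylated reads in the promoter window (horizontal axis) of the 33 measured genes, ordered by their mean, with the number of cytosines after each name. Each point is 1 library, with color for the group and shape for the replicate. Most points lie to the right of 50% in every group, and 1 or more libraries stand far from the rest in Dmc1, Tdrd9, Rpl10l and Hormad2.

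CpG content was compared for windows restricted to 1000 bp either side of the principal start, which left 29 of the 33 genes and 13151 protein-coding genes. The ratio of CpGs observed to those expected from the base composition was taken within 500 bp either side of that start. It was 0.6 or more in 22 of the 29 genes (75.9%), a share near the 72.9% of protein-coding genes, and in 3 of the 14 genes with no measured window. Of the 22 CpG-rich genes, 18 (81.8%) were methylated, and of the 9582 such protein-coding genes, 264 (2.76%) were. Below 0.6, all 7 genes and 27.5% of 3569 protein-coding genes were methylated. These shares are a description, because the genes were proposed as methylated ones.

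**Figure D2:**
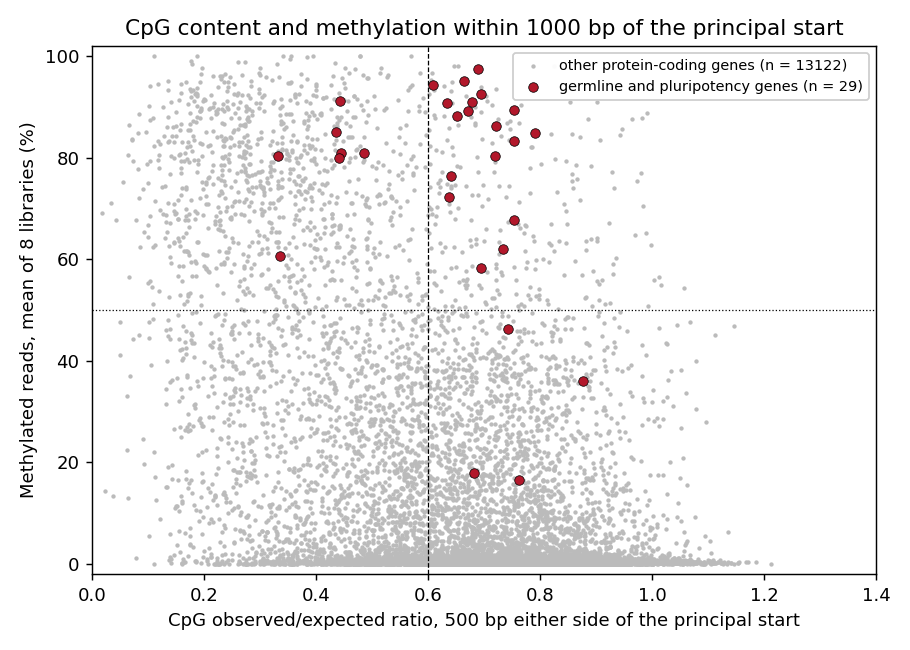
CpG observed/expected ratio (horizontal axis) against the mean percent of methylated reads over 8 libraries (vertical axis), both at the principal start, for other protein-coding genes in gray and 29 germline and pluripotency genes in red. Lines mark a ratio of 0.6 and a mean of 50%; 18 of the 22 red points at 0.6 or more lie above 50%.

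E-box motifs were frequent in these promoters. RefSeq promoters (250 bases before to 50 after the start) were found for 37 of the 47 genes. CACGTG, which reads the same on both strands, was present in 15 of them (40.5%) and in 8.16% of 26794 genes. Among genes with a CpG ratio of 0.6 or more, it was present in 12 of 22 (54.5%) and in 12.3% of 8065. GGCGGGA, searched on both strands, was in 7 of 37 (18.9%) against 12.9% of all genes, and in 31.8% against 27.2% of the CpG-rich ones. In none of the 37 genes did matches of the 2 motifs overlap. A match is a string of letters, not a measured binding site. Measured CpGs inside these motifs were at 100% in all 8 libraries in Mael (GGCGGGA, 12 bp after the start) and at 46.2 to 100% in Ddx4 (CACGTG, at -35 bp). Besides the Sycp1 match given above, a CACGTG lay 605 to 606 bp after the nearest Sycp1 start. It averaged 94.4% on the plus strand and 83.1% on the minus strand, where single libraries went down to 56.25%.

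Methylation extended across the windows but was uneven within several of them. Of the 385 cytosines, 195 averaged 80% or more, 76 lay between 50 and 80%, 67 between 20 and 50%, and 47 below 20%. Within 200 bp of the nearest annotated start, 221 cytosines of 26 genes had a median of 83.5%. Beyond that and up to 500 bp, 82 cytosines had a median of 76.9%, and from there to 1000 bp another 82 had 76.2%. All 18 cytosines of Hormad1 and all 7 of Mael averaged above 80%. Dazl, an RNA-binding protein of early germ cells, was split: 17 cytosines from 726 to 810 bp after the principal start averaged 18.7 to 75.3%, while 7 cytosines from 272 to 373 bp after it averaged 78.1 to 100%. Of 6 Dazl cytosines before that start, from -602 to -476 bp, 5 were above 90% and the other was 11.4%. Tdrd6 had 30 cytosines that averaged from 0 to 84.2%. Some low values lay on 1 strand of a CpG whose other strand was much higher. The 0% of Tdrd6 stood opposite 62.0%, and 15.5% in Tex19.2 stood opposite 90.4%. In Sycp1, 8.30% stood opposite 96.0%, and 21.7% opposite 96.0%. The cause of these strand differences was not tested, so such low values may not describe the CpG as a whole.

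**Figure D3:**
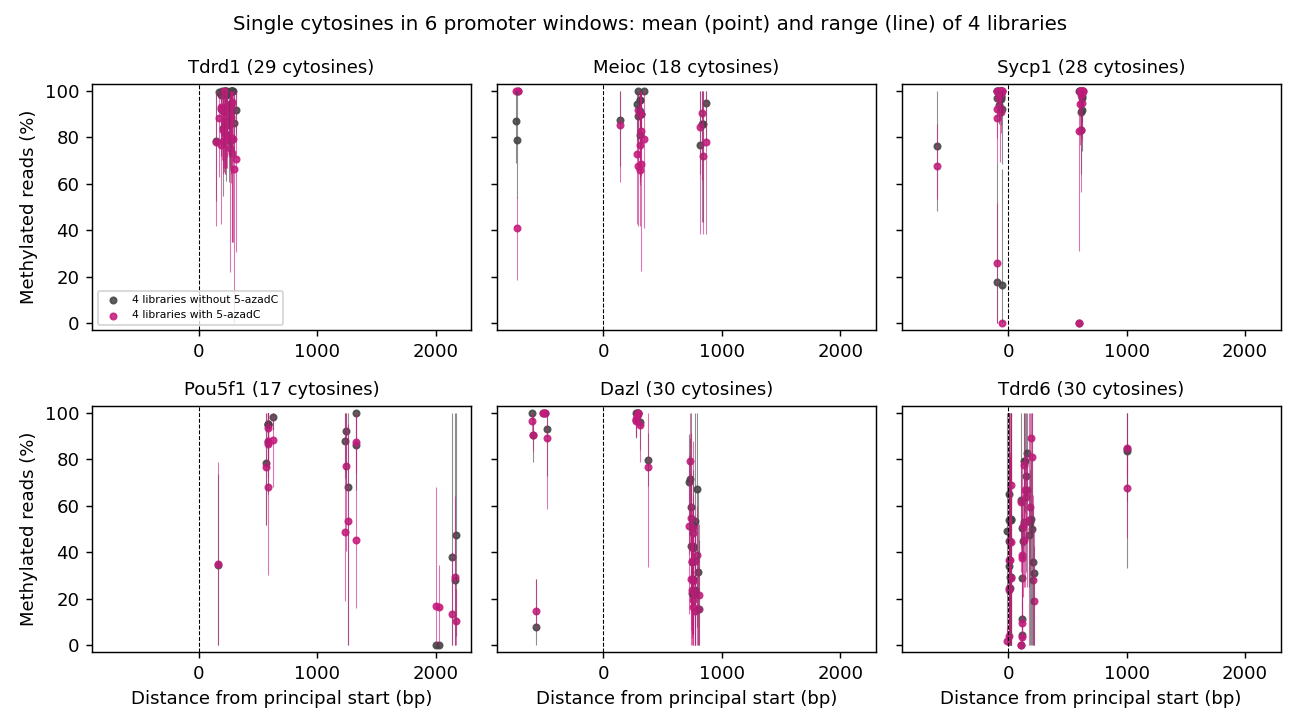
Single cytosines of 6 promoter windows, by distance in bp from the principal start (horizontal axis; dashed line at the start) and percent of methylated reads (vertical axis). Points are means of the 4 libraries without 5-azadC (gray) or with it (magenta), and lines span those 4 libraries; in Tdrd1 26 of 29 cytosines were lower with 5-azadC, and in Dazl the 17 cytosines from 726 to 810 bp averaged 18.7 to 75.3% over all 8 libraries and the 7 from 272 to 373 bp 78.1 to 100%.

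The main comparison set the 4 libraries with 5-azadC (alone or with C29) against the 4 without it, which addresses how far the drug lowered methylation at these promoters. Of the 28 genes with a mean of 50% or more in the libraries without 5-azadC, 27 also had one of 50% or more in the libraries with it, and the other was Mov10l1 (51.9 and 42.0%). The median of the 33 windows was 83.3 and 82.9% in the libraries with vehicle, 85.4 and 88.1% with C29, 78.5 and 80.6% with 5-azadC and 76.3 and 74.3% with both drugs, so all 4 libraries with 5-azadC were lower by this median. The same held for the 1732 protein-coding windows outside the list with a mean of 50% or more. Their library medians were 76.3 to 81.3% without 5-azadC and 69.8 to 73.3% with it. The median difference over the 33 genes was -3.23 percentage points, with a lower mean in 28 of 33 (84.8%). Over all 20455 windows, 59.5% were lower and the median was -0.262 points. Among the 27 methylated genes the median was -3.83 points with 24 lower (88.9%), and among the 1732 other methylated protein-coding windows it was -5.91 points with 75.2% lower. In windows restricted to the principal start, methylated genes with a CpG ratio of 0.6 or more had a median difference of -2.63 points in the list and -1.74 points among protein-coding genes. With a ratio below 0.6 the medians were -5.05 and -6.40 points. When cytosines at any start were counted, they were -2.63 and -3.47 points at 0.6 or more. Below 0.6 they were then -10.5 and -6.58 points. Which set had the larger drop thus depended on the window, on both sides of 0.6.

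In 4 genes every library with 5-azadC lay below every library without it: Tdrd1, Meioc, Sycp1 and Tdrd9. Of all windows, 3.08% did so, and of windows with a mean of 50% or more, 6.96%. With cytosines at the principal start alone they were 3, without Tdrd9 (background 1.78% of protein-coding windows). Of those protein-coding windows 9.47% were methylated, against 86.2% of the 29 genes of the list, so this background is not matched for methylation. The share among methylated windows at the principal start is not given. No gene of the list had all 4 above (0.704% of all windows). The two-sided exact permutation p was 0.0286 for each of the 4 genes, which is the smallest that 4 against 4 libraries allow, and it is not adjusted over genes. The edgeR quasi-likelihood test over all 8 libraries, with Benjamini-Hochberg adjustment over 19710 windows, called 0 of the 33 genes for 5-azadC (background 0.00507%, 1 window). At an unadjusted edgeR p below 0.05 there were 2, Tdrd9 and Tdrd1, both with an edgeR adjusted p of 0.921, where 4.42% of all windows passed.

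Among genes of the piRNA pathway, which silences transposons in germ cells, 12 of 15 were measured and 9 were methylated. Tdrd1, a tudor-domain scaffold of the germ granule (chr19:56826209-56870012), gave 94.4 and 90.5% with vehicle, 94.1 and 94.4% with C29, 87.8 and 82.3% with 5-azadC and 86.6 and 83.8% with both drugs. The 5-azadC libraries were all lower, 85.1% ± 2.51 (SD, n = 4) against 93.3% ± 1.88 (n = 4), with all 29 cytosines from 148 to 312 bp after the principal start. Tdrd9, a tudor-domain helicase (chr12:111971559-112068854), rested on a single cytosine. It lies 90.8 kb inside the gene, at -839 bp from an internal alternative start, and not near the principal start. It gave 88.9 and 100% with vehicle, 100 and 99.3% with C29, 80.8 and 52.5% with 5-azadC and 85.0 and 83.3% with both. Its difference was -21.6 points, with 26 to 146 reads per library and 1 library far below the others.

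Mael, needed for transposon repression (chr1:166201201-166238747), gave 96.9 and 100% with vehicle, 94.7 and 98.4% with C29, 100 and 96.1% with 5-azadC and 96.6 and 96.7% with both. It was the most methylated of the 33 and its groups overlapped, with a difference of -0.17 points. Ddx4, the Vasa RNA helicase (chr13:112598333-112652475), gave 91.1 and 79.8% with vehicle, 89.5 and 94.7% with C29, 89.9 and 87.1% with 5-azadC and 92.0 and 90.3% with both. Its lowest library was a vehicle one, and the mean was 1.02 points higher with 5-azadC.

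Piwil2, a PIWI protein that binds piRNAs (chr14:70372477-70429383), gave 100 and 78.6% with vehicle, 85.4 and 87.3% with C29, 72.5 and 89.1% with 5-azadC and 60.5 and 66.5% with both. Both combination libraries were below the other 6, while the 5-azadC libraries overlapped the vehicle ones. Its 6 cytosines also lie in the window of a small nuclear RNA gene, Gm24890. Tex19.1, which restrains retrotransposons, gave 78.1 and 86.6% with vehicle, 79.1 and 90.1% with C29, 69.4 and 71.8% with 5-azadC and 74.2 and 98.3% with both. All but 1 of its 4 libraries with 5-azadC were lower than all those without, and that one was the highest of the 8. Its paralog Tex19.2 gave 59.7 and 70.1% with vehicle, 66.9 and 54.6% with C29, 63.2 and 49.6% with 5-azadC and 60.9 and 59.7% with both, and these overlapped.

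Asz1, a germ granule protein, ranged from 86.2 to 100% over 2 cytosines, and Tdrd12, a piRNA biogenesis factor, from 45.9 to 93.3% over 2 that lie 31.8 kb inside the gene by an internal start. Intermediate levels were found at Tdrd6 (32.4 to 59.5%), at Mov10l1, a piRNA helicase (28.2 to 67.1%), and at Tdrd5 (8.53 to 63.0%), whose 9 cytosines lie in the window of the antisense gene 4930518J20Rik as well.

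Of the synaptonemal complex and axis genes, 8 of 12 were measured and 7 were methylated. These proteins hold homologous chromosomes together in meiosis. Sycp1, the transverse filament (chr3:102818499-102936100), gave 85.6 and 85.7% with vehicle, 87.5 and 93.5% with C29, 82.8 and 83.5% with 5-azadC and 85.6 and 85.0% with both. The sets did not overlap, but the gap was below the rounding used here: the highest library with 5-azadC and the lowest without both round to 85.6%. Its means were 84.2% ± 1.28 (SD, n = 4) and 88.1% ± 3.69 (n = 4), and 10 of its 28 cytosines were lower with 5-azadC.

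Sycp3, of the lateral element (chr10:88459569-88473236), gave 93.9 and 85.9% with vehicle, 92.6 and 97.5% with C29, 87.8 and 89.2% with 5-azadC and 82.6 and 75.7% with both. It overlapped in 1 vehicle library, and its difference was -8.63 points (two-sided exact permutation p = 0.0857, n = 4 and 4). Sycp2, its partner, gave 78.6 and 77.4% with vehicle, 82.5 and 72.4% with C29, 85.2 and 65.4% with 5-azadC and 82.6 and 66.5% with both. Libraries with 5-azadC held both its highest and its lowest values. Syce2, of the central element, gave 64.0 and 76.6% with vehicle, 77.5 and 56.7% with C29, 55.5 and 72.5% with 5-azadC and 73.6 and 64.9% with both, and the groups overlapped.

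Hormad1, an axis protein that monitors pairing (chr3:95559677-95587671), gave 94.9 and 95.1% with vehicle, 90.9 and 94.3% with C29, 86.4 and 92.0% with 5-azadC and 95.1 and 92.0% with both. It stayed above 86% in all 8. Hormad2, its paralog, gave 100 and 100% with vehicle, 91.2 and 95.7% with C29, 100 and 100% with 5-azadC and 100 and 74.0% with both, over 3 cytosines, and 1 combination library was lower than the rest.

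Smc1b, a meiotic cohesin, gave 60 and 70% with vehicle, 62.6 and 42.5% with C29, 64.6 and 56.8% with 5-azadC and 63.9 and 46.3% with both. All 12 of its cytosines lie in the window of its neighbor Ribc2 as well. Stag3, another cohesin subunit, ranged from 16.2 to 38.9%, and 14 of its 15 cytosines are shared with Gpc2.

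For meiotic entry and recombination, 4 of 6 genes were measured and 3 were methylated. Meioc, which keeps germ cells in meiotic prophase (chr11:102663716-102682237), gave 91.5 and 90.4% with vehicle, 89.1 and 87.2% with C29, 83.8 and 84.7% with 5-azadC and 80.4 and 71.9% with both. All 4 libraries with 5-azadC were lower, 80.2% ± 5.87 (SD, n = 4) against 89.5% ± 1.86 (n = 4), a difference of -9.33 points, and both combination libraries were below both 5-azadC libraries. With 2 libraries against 2, an exact permutation test cannot go below p = 0.33, and the edgeR adjusted p for an interaction of the drugs at Meioc was 1. Spo11, which makes the DNA breaks of recombination, gave 95.1 and 96.1% with vehicle, 92.6 and 90.2% with C29, 95.5 and 83.6% with 5-azadC and 79.8 and 93.0% with both, and the sets overlapped.

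Dmc1, the meiotic recombinase (chr15:79561497-79605109), gave 18.1 and 93.2% with vehicle, 90.9 and 88.1% with C29, 86.2 and 80.6% with 5-azadC and 93.8 and 27.3% with both. The 2 low libraries, of different groups, stood apart from the other 6, all of which were above 80%. Its 4 cytosines lie 14 to 35 bp after the principal start on 1 strand, with 44 to 196 reads in all, and the vehicle share of 18.1% has a 95% Wilson interval of 10.9 to 28.5%, which covers counting error only. Tex15, needed for recombination repair, ranged from 7.11 to 35.7% with 17 cytosines, the first 462 bp after the 5′ end of the gene and far from its principal start.

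Of 7 other germ cell genes 6 were measured and 5 were methylated. Tex101, a surface protein of male germ cells, gave 83.8 and 95.3% with vehicle, 90.4 and 91.8% with C29, 78.5 and 84.4% with 5-azadC and 76.3 and 80.2% with both. A vehicle library fell among those with 5-azadC, all 5 cytosines were lower with the drug, and the difference was -10.5 points (two-sided exact permutation p = 0.0571, n = 4 and 4). Tex14, of the bridges between germ cells, gave 100 and 79.2% with vehicle, 89.8 and 93.5% with C29, 93.9 and 87.8% with 5-azadC and 89.0 and 94.4% with both. Its vehicle libraries were its highest and lowest, and 3 of its 5 cytosines are shared with Rad51c.

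Slc25a31, the ADP/ATP carrier of male germ cells, gave 73.6 and 95% with vehicle, 93.0 and 80.5% with C29, 70.6 and 74.1% with 5-azadC and 88.5 and 90.8% with both. Both libraries with 5-azadC alone were near the lower vehicle library, and both with the combination were above 88%. Dazl gave 69.7 and 60.2% with vehicle, 56.3 and 63.0% with C29, 59.4 and 61.7% with 5-azadC and 69.8 and 55.3% with both, and the groups overlapped. Its difference was -0.74 points over 30 cytosines with 1283 to 2559 reads per library. That value depended on how reads fell over the window, and with every cytosine weighted equally it was -4.27 points. Dmrt1, a transcription factor of the testis, ranged from 11.96 to 23.0%, and no cytosine among its 21 averaged 50% or more.

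Rpl10l, a retrotransposed ribosomal protein gene, had a single cytosine at -94 bp from its start. It gave 100 and 100% with vehicle, 44.0 and 100% with C29, 52.2 and 100% with 5-azadC and 71.1 and 75.0% with both. Both vehicle libraries and 1 of each single-drug group were fully methylated.

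For pluripotency, 3 of 7 genes were measured and all 3 were methylated. Pou5f1, the core factor Oct4 (chr17:35506018-35510772), gave 74.9 and 66.2% with vehicle, 68.2 and 71.3% with C29, 48.6 and 66.7% with 5-azadC and 52.4 and 62.8% with both. Its sets overlapped in a single pair of libraries (66.7% with 5-azadC, 66.2% with vehicle). The difference was -12.5 points (two-sided exact permutation p = 0.0571, n = 4 and 4), and 13 of 17 cytosines were lower with 5-azadC. Of the 17, only 7 lay within 1000 bp of the principal start, with differences of -19.2 to 0.39 points. The rest lay 1238 to 2171 bp after it, by other annotated starts, with differences of -40.6 to 17.0 points. Zfp42, known as Rex1, gave 83.3 and 83.2% with vehicle, 69.7 and 92.9% with C29, 71.1 and 86.8% with 5-azadC and 71.1 and 88.7% with both. In each drug group 1 library was below vehicle and 1 above. Dppa3, a factor of oocytes and early embryos, gave 89.3 and 82.9% with vehicle, 85.0 and 100% with C29, 89.6 and 82.5% with 5-azadC and 100 and 100% with both, over 3 cytosines. It was the gene with the largest higher mean with 5-azadC, 3.73 points.

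Differences with C29 went in both directions at these promoters. The median difference over the 33 genes between the 4 libraries with C29 and the 4 without was -0.42 points, with 18 lower, and over all windows it was 0 points. No gene had all C29 libraries below the others (1.15% of all windows). At Mov10l1, all 4 were above (0.978% of all windows): it gave 28.9 and 48.1% with vehicle, 67.1 and 63.4% with C29, 41.3 and 28.2% with 5-azadC and 50.2 and 48.5% with both. That is 20.6 points higher with C29 (two-sided exact permutation p = 0.0286, n = 4 and 4), with 4 cytosines that lie 38.3 kb inside the gene, 819 to 917 bp after an internal alternative start. The edgeR test called 0 of the 33 for C29 and 0 for the interaction of the drugs (0.0% of windows for each), and 0 passed an unadjusted p below 0.05 for either (3.38 and 2.93% of windows).

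Calls between pairs of groups used a logistic test that covers counting error only, at a Benjamini-Hochberg q below 0.01 and a pooled difference of 25 points or more, over all 20455 windows. The 3 comparisons with vehicle share its 2 libraries. C29 against vehicle called 2 of the 33 genes (background 3.4%, and 8.22% of windows with a mean of 50% or more), Rpl10l at -37.8 points and Mov10l1 at 28.4 points. 5-azadC against vehicle called 1 (background 4.52%, and 13.1%), Tdrd9 at -36.5 points. C29+5-azadC against vehicle called 2 (background 4.67%, and 12.9%), Piwil2 at -28.4 and Rpl10l at -27.6 points.

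C29+5-azadC against 5-azadC alone called 3 (background 4.04%, and 11.7%): Dmc1 at -27.8, Tdrd5 at -25.6 and Tdrd9 at 25.6 points. Tdrd5 gave 53.9 and 36.2% with vehicle, 45.1 and 8.53% with C29, 32.3 and 63.0% with 5-azadC and 24.8 and 24.1% with both, so its 2 libraries with 5-azadC alone differed from each other more than their mean did from the combination. Of the 8 calls, 7 were lost when 1 library was left out, and the exception was Rpl10l in the combination. Those libraries were vehicle replicate 1 for Mov10l1 (16.9 points without it) and Piwil2 (-15.0 points), C29 replicate 1 for Rpl10l (0 points), and C29+5-azadC replicate 2 for Dmc1 (10.7 points). 5-azadC replicate 2 was that library for Tdrd9 against vehicle (-14.2 points) and Tdrd5 (-7.88 points), and the higher call of Tdrd9 was lost without it (3.27 points) and without C29+5-azadC replicate 1 (24.9 points). With the spread between libraries in an F test, none of the 8 passed, at unadjusted p from 0.0208 to 0.386.

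Methylation of gene bodies was near that of other genes. Body cytosines more than 1000 bp from every start of the gene were measured for 23 genes, 7 of which had no measured window, with 153 cytosines in all. Methylation was 50% or more in 19 of the 23 bodies (82.6%) and in 77.9% of the 11685 protein-coding gene bodies measured, with medians of 73.1 and 73.6%. With 5-azadC all 23 had a lower mean, as did 84.8% of all bodies, and the median differences were -6.54 and -7.65 points. In Tex15 (77.6 against 88.6%) and Piwil4 (78.4 against 89.3%) all 4 libraries with the drug were below the others, 2 of 23 bodies where 15.4% of all bodies did so.

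No common cytosine was measured in the windows of 14 genes: Piwil1, Piwil4, Stk31, Syce1, Syce3, Tex12, Rec8, Stra8, Meiob, Brdt, Nanog, Dppa2, Dppa4 and Dppa5a. With 10 or more reads in single libraries, where the cytosines differ from library to library, Dppa4 gave 79.3 to 95.1% and Stra8, a switch for meiotic entry, 55.4 to 100% in 8 libraries. Meiob, a meiotic single-strand DNA binding protein, gave 0 to 15.5% in 8. Ranges in 8 libraries were wide at Brdt (33.6 to 79.6%), Piwil1 (8.73 to 69.95%), Piwil4 (51.5 to 89.4%) and Dppa2 (5.26 to 96.2%). Nanog had a cytosine in 2 libraries, Stk31 in 1 and Dppa5a in none.

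Genes of the same pathways outside the list were looked at for comparison. Of 50 other germline genes 29 were measured, 16 of them methylated, 4 intermediate and 9 low, and 23 had a lower mean with 5-azadC (79.3%). Of all windows 59.5% had a lower mean, and of windows with a mean of 50% or more, 76.5%. In 2 of them all 4 libraries with 5-azadC were lower: Sohlh2, a transcription factor of early germ cells (-16.4 points), and Nobox, an oocyte factor (-16.1 points). All 4 were lower in 3.08% of all windows and in 6.96% of windows with a mean of 50% or more. These shares are also the background for the lists that follow. Majin, which tethers telomeres in meiosis, differed by -13.8 points with overlap. Of 22 other pluripotency genes 19 were measured, of which 3 were methylated, 12 intermediate and 4 low. Fbxo15 differed by -13.4 points, Gdf3 by 9.57 and Esrrb by -7.39 points, and Klf2, a low window named after its values were seen, was the single gene without overlap (-0.97 points). Of 20 genes for repressors of germline genes, all were measured and 16 were low, E2f6 (6.41%, 3.22 points higher with 5-azadC) and Kdm5c (2.31%, 3.71 points higher) among them, both with overlap. L3mbtl2 was the methylated one, at 88.5% over 7 cytosines, with all libraries with 5-azadC below the others (-13.4 points). Where these cytosines lie relative to its principal start is not given.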

How the data were processed

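RRBS libraries were made and sequenced by Diagenode, and reads were aligned to mm10/GRCm38. The submitters' processing notes name FastQC 0.11.8, Trim Galore 0.4.1, Bismark 0.20.0 and methylKit 1.7.0. The authors deposited, per CpG cytosine and strand, a methylated fraction (0 to 1) and a read count, neither of them normalized; fraction times count was whole within 0.01 reads for 99.9998% of cytosines. Whether PCR duplicates were removed is not given in the sources used here. RRBS reads of a fragment start at the same restriction site and are not independent molecules, so intervals and read-level tests cover counting error only.

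The 47 genes and the comparison lists were chosen with earlier results of these data known, and no list was tested. Of the cytosines, 567750 had 10 or more reads in all 8 libraries. The depth in reads limits each value, and reads were summed per window. The logistic likelihood-ratio test followed methylKit. edgeR 4.0.16 (limma 3.58.1, R 4.3.3) fitted methylated and unmethylated counts of 8 libraries. Adjustment covered all windows. Exact permutation tests compared libraries, which are pools of mice. Python 3.11.15, NumPy 2.4.6, SciPy 1.17.1, pandas 2.3.3 and matplotlib 3.10.9 were used. The edgeR test and the logistic test, with and without the replicate block, were tried on simulated data, and the other tests were not. Genes described in every library had 3 or more cytosines and a mean of 50% or more, or were called or did not overlap; examples of other lists had the largest differences with 3 or more cytosines. Alternatives covered coverage (5 and 20 reads), window extent, the principal start alone, cytosines per window, equal weight per cytosine, highest coverage, overdispersion, a replicate block and each library left out.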

Additional observations from a re-analysis of the deposited data

Results flagged for a closer look

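In each gene the 4 libraries with 5-azadC and the 4 without it were searched for a library far from the other 3, by Dixon's ratio at its 95% critical value. Each set of 4 joins 2 treatment groups. Chance marks about 1 in 20 sets of normally distributed values, a rate that need not hold for percentages capped at 100%. Where 3 libraries were tied at 100%, as in Hormad2 and Rpl10l, any lower value of the other library is marked. Of 66 sets, 8 were marked, with 95% Wilson intervals given for counting error. Dmc1 was 18.1% (10.9 to 28.5%, 72 reads) in vehicle replicate 1, where the other 3 libraries without 5-azadC were 88.1 to 93.2%. Tdrd9 was 52.5% (42.8 to 62.1%, 99 reads) in 5-azadC replicate 2 against 80.8 to 85.0% in the others, and 88.9% (78.8 to 94.5%, 63 reads) in vehicle replicate 1 against 99.3 to 100%. Rpl10l was 44.0% (26.7 to 62.9%, 25 reads) in C29 replicate 1 against 100%. Both rest on 1 cytosine. Hormad2 was 74.0% (67.3 to 79.7%, 192 reads) in C29+5-azadC replicate 2 against 100%, and Tex19.1 was 98.3% (94.1 to 99.5%, 119 reads) in that library against 69.4 to 74.2%. The other marked values lie close to the rest: Mael at 100% in 5-azadC replicate 1 against 96.1 to 96.7%, and Tdrd1 at 90.5% in vehicle replicate 2 against 94.1 to 94.4%.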

How the results depend on the processing

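Few cytosines in common and 2 libraries per group limit these results. Counts are of genes of the list. C29 against vehicle gave 2 calls, and 1 at 5 reads, 0 at 20 reads, 1 with 500 bp windows, 1 with 3 or more cytosines, 0 with the F test and 1 to 4 with a library left out. 5-azadC against vehicle gave 1, and 0 at 5 reads, 2 at 20 reads, 0 with 3 or more cytosines, 0 with the F test and 1 to 2 with a library left out. C29+5-azadC against vehicle gave 2, and 1 with 3 or more cytosines, 0 with the F test and 2 to 4 with a library left out. Against 5-azadC alone it gave 3, and 1 at 5 reads, 0 with the F test and 1 to 5 with a library left out (1 without 5-azadC replicate 2). Genes with all 5-azadC libraries below the rest were 4, and 2 at 20 reads, 2 with 500 bp windows, 2 with upstream windows and 4 to 7 with a library left out (7 without 5-azadC replicate 2). For C29 they were 0, and 1 at 5 reads and 0 to 2 with a library left out. Leaving out a library makes non-overlap easier to reach, and the share of all windows is not given for these settings. These counts therefore cannot be set against the background shares given above. The median difference with 5-azadC, -3.23 points, was -5.05 at 20 reads (27 genes) and -6.07 to -2.52 with a library left out (-6.07 without C29 replicate 2); over the 27 methylated genes, an alternative chosen after seeing the data, it was -3.83. The median difference was -3.42 points with every cytosine weighted equally, and it was negative under each alternative run. With that weighting 4 genes had all 5-azadC libraries below the rest. Single genes moved more: Sycp1 was at -1.51 points in place of -3.83. Among the genes that changed sign were Smc1b (-0.89 to 3.46 points) and Tdrd6 (1.11 to -4.27 points). With windows at the principal start alone, also chosen after seeing the data, 29 genes remained; C29 against vehicle gave 1 call and 5-azadC against vehicle 0. The causes were not tested. edgeR called 0 throughout.

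Replicate numbers did not pair the libraries: same-numbered deviations from group means correlated at -0.0241 to 0.0254. With the replicate block the logistic counts were 2, 1, 2 and 3 in the order above, and edgeR called 0. Non-overlap was then asked within each replicate number, 2 libraries against 2, a looser rule than 4 against 4. By that rule 5 genes lay below with 5-azadC and 0 with C29, and the share of all windows is not given.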
